A study of Mus musculus with 20 samples.

Results

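Genes that mark T lymphocytes and their main subsets were followed in visceral adipose tissue (VAT) of mice. The 10 genes were chosen by name, not by their values, and are Cd3e, Cd3g, Cd4, Cd8a, Foxp3, Il2ra, Il1rl1, Gata3, Tbx21 and Ifng. They are 10 of the 37074 gene names on the array and of the 25618 gene names with at least 1 probe that was tested. Together they have 17 probes, of which 15 were tested.

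CD3 chains such as those of Cd3e and Cd3g assemble with the T cell receptor and carry its signal into the cell, while CD4 and CD8 are the coreceptors that divide helper from cytotoxic T cells. Regulatory T cells are the suppressive helper subset and depend on the transcription factor FOXP3 and on CD25, the alpha chain of the interleukin 2 receptor, encoded by Il2ra. Lean visceral fat holds a resident population of them that carries ST2, the receptor of IL-33 encoded by Il1rl1, together with GATA3 and PPAR gamma. T-bet, encoded by Tbx21, directs the opposing Th1 programme and its cytokine interferon gamma, encoded by Ifng.

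The samples were epididymal fat of 20 male C57BL/6J mice of the F3 generation, with 1 array of 1 colour (Cy3) per mouse. Ref (n = 6) were mice of a control lineage, whose feed was enriched in oleic acid over the generations, kept on a low-fat diet. HFoleic (n = 6) were mice of that same control lineage given an obesogenic diet rich in fat and sucrose for several months, and HFepa (n = 8) were mice of a lineage enriched in eicosapentaenoic acid (EPA) from fish oil, on the same obesogenic diet. No mouse of the EPA lineage was on the low-fat diet, so the effects of lineage and of diet cannot be told apart in HFepa vs. Ref. The labels name no introduced allele, and the RNA was of whole tissue, which held adipocytes as well as immune cells. Adipoq, the adipocyte hormone adiponectin that served as a check of the labelled tissue, was measured in every group, with a mean of 18.13 in Ref, 18.10 in HFoleic and 18.06 in HFepa. Prm1 and Prm2, genes of sperm, stood apart in 4 mice (Ref 3, Ref 6, HFoleic 5 and HFepa 4), where Prm1 lay from 9.65 to 10.88 against 5.51 to 6.75 in the other 16. In such bulk tissue, fewer cells of a type and less RNA per cell cannot be told apart.

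Levels are log2 median spot signals, quantile normalised between arrays, and a difference of 1 is a doubling of signal. They are compared between mice for 1 probe at a time and never between genes, because probes bind with different strength. Where the brightest probe of a gene list is named, this says only which probe gave the most signal. Each gene is described by its probe with the highest mean signal, and a gene was called changed when the adjusted p of limma was below 0.05. The share of spots well above background was 66.06% on the lowest array and 71.88% on the highest.

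Of the 10 genes, 2 passed the test in HFoleic vs. Ref, Il2ra and Il1rl1, and both were higher in HFoleic. This stood beside a background in which 31.8% of all genes tested were called in that comparison, 15.2% higher and 16.7% lower in HFoleic. None of the 10 was called in HFepa vs. Ref, where 2.46% of all genes were, or in HFepa vs. HFoleic, where 0% of all genes were called by limma. At an unadjusted p below 0.05, Il2ra alone of the 10 genes passed in each of these comparisons with HFepa, beside 5522 (21.6%) of all genes in HFepa vs. Ref and 5331 (20.8%) in HFepa vs. HFoleic. These backgrounds depend on single mice and on the slide: in HFepa vs. HFoleic 811 genes were called with slide as a block, 1117 without HFoleic mouse 1 and 1978 without HFepa mouse 1. In HFepa vs. Ref, 100 genes were called without Ref mouse 6 and 1801 without HFepa mouse 3. None of the 10 genes was called in either comparison under any of these. Without the 4 mice with Prm1 signal, Il2ra and Il1rl1 were called as before in HFoleic vs. Ref (0.613 and 0.652, adjusted p = 0.0386 and 0.0411). In HFepa vs. Ref limma then called 0 of all genes, with 3982 at an unadjusted p below 0.05. The comparisons of HFoleic and HFepa with Ref used the same 6 Ref mice and are therefore not independent of each other.

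**Figure D1:**
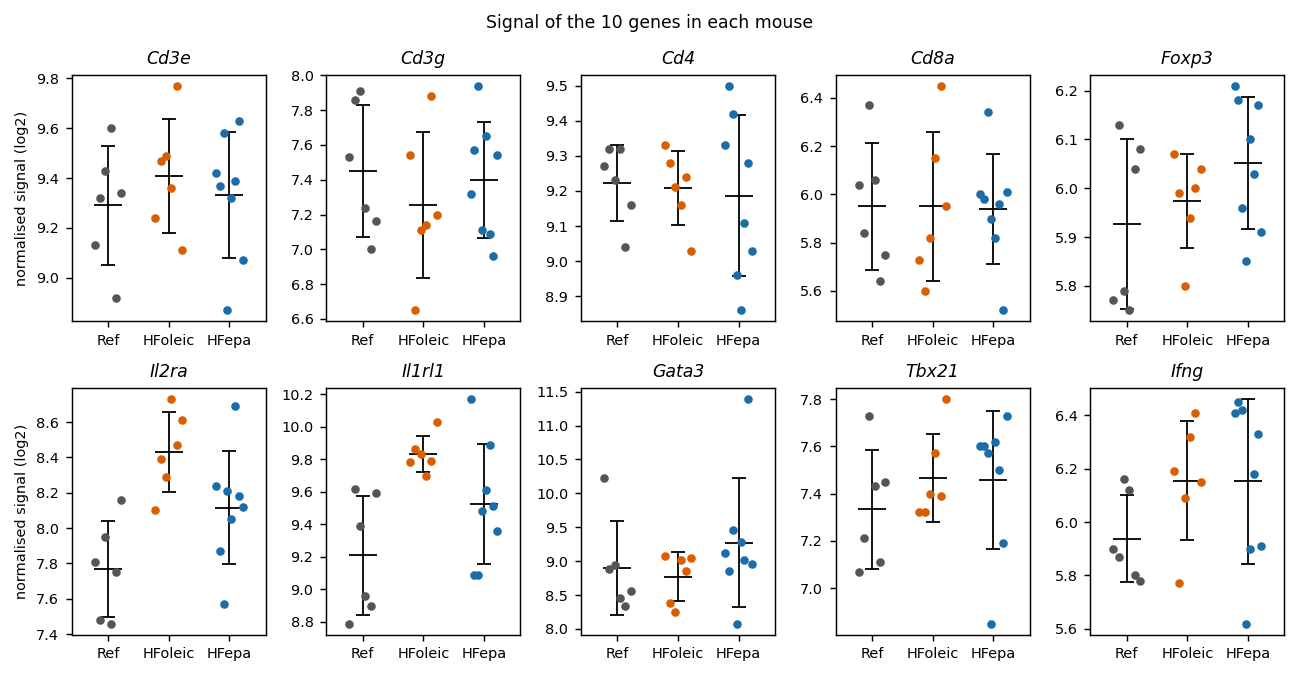
Normalised signal (log2, vertical axis with its own range for each gene) of the 10 genes in every mouse of Ref (grey, n = 6), HFoleic (orange, n = 6) and HFepa (blue, n = 8), with the mean and SD of each group in black. The HFoleic mice lie above the Ref mice for Il1rl1 and nearly so for Il2ra, and the groups overlap for the other genes.

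Il2ra and Il1rl1 moved in the same comparison, and the sequence before their annotated starts is given to show what the 2 genes have there. The windows hold the 250 bases before each start listed by RefSeq on GRCm38.p6, on the plus strand, for 1 start of Il2ra (chr2:11642542-11642791) and for 2 starts of Il1rl1 (chr1:40429320-40429569 and chr1:40439379-40439628). Capitals mark GATAA, a core of sites bound by GATA factors, and TTCNNNGAA, a core of sites bound by STAT factors, each searched on both strands. The letters GATAA were found in both windows of Il1rl1, 216 and 79 bases before the first start and 103 bases before the second, where they lie on the other strand as TTATC. Neither motif was found in the window of Il2ra, and TTCNNNGAA was found in none of these 3 windows. Of 32851 such windows of the genome, 22.6% held GATAA and 7.02% held TTCNNNGAA, so a match is a description of the letters only.
Il2ra: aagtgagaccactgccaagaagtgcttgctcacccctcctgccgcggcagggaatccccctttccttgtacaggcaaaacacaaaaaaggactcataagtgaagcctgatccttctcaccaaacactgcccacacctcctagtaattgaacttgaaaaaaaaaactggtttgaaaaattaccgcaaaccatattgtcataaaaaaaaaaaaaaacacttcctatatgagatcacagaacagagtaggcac
Il1rl1, first start: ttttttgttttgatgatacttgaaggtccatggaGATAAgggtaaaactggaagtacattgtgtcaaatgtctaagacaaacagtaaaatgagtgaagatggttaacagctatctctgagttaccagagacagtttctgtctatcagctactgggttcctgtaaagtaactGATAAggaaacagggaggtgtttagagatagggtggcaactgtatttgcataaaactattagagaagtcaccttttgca
Il1rl1, second start: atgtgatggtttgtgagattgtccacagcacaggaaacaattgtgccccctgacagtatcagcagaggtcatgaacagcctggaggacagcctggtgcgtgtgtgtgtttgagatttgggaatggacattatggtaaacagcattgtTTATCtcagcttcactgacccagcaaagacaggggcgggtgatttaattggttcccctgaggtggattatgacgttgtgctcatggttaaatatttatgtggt

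The subunits of the T cell receptor complex were described first. Cd3e was measured by a probe at chr9:44806828-44806887 (mm9). Its level ran from 8.92 to 9.60 in Ref with a median of 9.33, from 9.11 to 9.77 in HFoleic with a median of 9.42, and from 8.87 to 9.63 in HFepa with a median of 9.38. The 3 groups overlapped over most of their range. The log2 difference was 0.11 ± 0.13 (SE) in HFoleic vs. Ref (adjusted p = 0.563), 0.04 in HFepa vs. Ref (adjusted p = 0.895) and -0.08 in HFepa vs. HFoleic (adjusted p = 0.785). A second Cd3e probe at chr9:44807254-44807313 differed by -0.10 in HFoleic vs. Ref (adjusted p = 0.507). After the mean of each group was subtracted, the signals of both probes correlated at r = 0.63 over the 20 mice.

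Cd3g, the gamma chain, was measured at chr9:44777868-44777927 (mm9). The level lay between 7 and 7.91 in Ref (median 7.39), between 6.65 and 7.88 in HFoleic (median 7.17) and between 6.96 and 7.94 in HFepa (median 7.43). HFoleic mouse 4 was lowest of all, and the ranges again overlapped. The difference was -0.20 ± 0.20 (SE) in HFoleic vs. Ref (adjusted p = 0.492), with a 95% interval from -0.62 to 0.22, and -0.06 in HFepa vs. Ref (adjusted p = 0.9).

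The coreceptor gene Cd4, read by a probe at chr6:124814711-124814770 (mm9), varied little between mice. Its level ran from 9.04 to 9.32 in Ref, from 9.03 to 9.33 in HFoleic and from 8.86 to 9.50 in HFepa, with medians of 9.25, 9.22 and 9.20. The difference in HFoleic vs. Ref was -0.01 (95% interval from -0.22 to 0.19, adjusted p = 0.928), and in HFepa vs. HFoleic it was -0.02 (95% interval from -0.21 to 0.17, adjusted p = 0.936). A second Cd4 probe was well above background on 18 of 20 arrays and differed by 0.05 in HFoleic vs. Ref (adjusted p = 0.626), while the third was above background on 0 arrays and was not tested. CD4 is also carried by some macrophages and dendritic cells, so the gene does not mark helper T cells alone.

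Cd8a, the alpha chain of the CD8 coreceptor, was dim but well above background on all 20 arrays with the probe at chr6:71328911-71328970 (mm9). The level was 5.95 ± 0.26 (SD, n = 6) in Ref, 5.95 ± 0.31 (SD, n = 6) in HFoleic and 5.94 ± 0.23 (SD, n = 8) in HFepa. Its highest mice were Ref 4 at 6.37, HFoleic 7 at 6.45 and HFepa 3 at 6.34, which were also the highest of their groups for Cd3g. The difference in HFoleic vs. Ref was below 0.01 in size, with a 95% interval from -0.30 to 0.30 (adjusted p = 0.997). Cd8b1, the beta chain, differed by -0.03 (adjusted p = 0.927).

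Foxp3, the lineage factor of regulatory T cells, was measured by its single probe at chrX:7172301-7172360 (mm9), well above background on all 20 arrays. The level ran from 5.75 to 6.13 in Ref with a median of 5.91, from 5.80 to 6.07 in HFoleic with a median of 5.99, and from 5.85 to 6.21 in HFepa with a median of 6.07. The order of the medians was Ref, HFoleic, HFepa, and neighbouring groups did not differ beyond their spread. The difference was 0.05 ± 0.08 (SE) in HFoleic vs. Ref (adjusted p = 0.708), which turned to -0.093 when arrays were centred on their medians, 0.13 in HFepa vs. Ref (95% interval from -0.03 to 0.29, adjusted p = 0.356) and 0.08 in HFepa vs. HFoleic (adjusted p = 0.581). Signal this low compresses differences, because background is part of it.

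Il2ra encodes CD25, which regulatory T cells carry at rest and other T cells and some myeloid cells gain on activation. With the probe at chr2:11614744-11614803 (mm9), the Ref mice lay from 7.46 to 8.16 with a median of 7.78. The HFoleic mice lay from 8.10 to 8.73 with a median of 8.43, and the HFepa mice from 7.57 to 8.69 with a median of 8.15. Only Ref mouse 7 reached into the range of HFoleic, where mouse 1 was lowest, and HFepa overlapped with both groups. Il2ra was 1.58-fold higher in HFoleic than in Ref, a log2 difference of 0.66 ± 0.15 (SE, adjusted p = 0.00343). In HFepa vs. Ref the difference was 0.35 ± 0.14 (SE, adjusted p = 0.177) and in HFepa vs. HFoleic it was -0.31 ± 0.14 (SE, 95% interval from -0.61 to -0.01, adjusted p = 0.225), neither of which passed the test. Within the 3 slides the difference HFoleic minus Ref was 0.83, 0.58 and 0.53, from 3, 1 and 2 HFoleic mice against 2 Ref mice on each slide. A second probe, designed on a cDNA clone at chr2:11570205-11570264, differed by -0.17 (adjusted p = 0.0907), and the mean of both probes differed by 0.245 (adjusted p = 0.0283). This second probe was well above background on all 20 arrays. After the mean of each group was subtracted, the 2 probes correlated at r = -0.20, so the call rests on the first probe, which the second did not follow.

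Il1rl1 encodes ST2, whose long form is the membrane receptor of IL-33 and whose short form is secreted and binds the cytokine without signalling. The brightest probe lies in the long form at chr1:40522187-40522246 (mm9). The Ref mice ran from 8.79 to 9.62 with a median of 9.17, the HFoleic mice from 9.70 to 10.03 with a median of 9.81, and the HFepa mice from 9.09 to 10.17 with a median of 9.50. HFoleic did not overlap with Ref, which held for 14% of all genes tested, and HFepa overlapped with both. Il1rl1 was thereby the only one of the 10 genes whose groups were separate in HFoleic vs. Ref, and none of the 10 was separate in HFepa vs. Ref or in HFepa vs. HFoleic, where 1.04% and 0.355% of all genes were. The level was 1.54-fold higher in HFoleic, a log2 difference of 0.63 ± 0.17 (SE, adjusted p = 0.00961). It was 0.32 ± 0.16 (SE, adjusted p = 0.266) in HFepa vs. Ref and -0.30 ± 0.16 (SE, adjusted p = 0.289) in HFepa vs. HFoleic. The within-slide differences HFoleic minus Ref were 0.63, 0.59 and 0.67, from 3, 1 and 2 HFoleic mice against 2 Ref mice on each slide. The mean of all its probes differed by 0.366 (adjusted p = 0.00956). With the replicate number as a block the difference was smaller and not called (adjusted p = 0.0909), and the labels do not say whether these numbers pair the mice.

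The other probes of Il1rl1 were dim. Another probe of the long form, at chr1:40520014-40520073, was well above background on 0 of 6 Ref arrays, 5 of 6 HFoleic arrays and 5 of 8 HFepa arrays. Its signal was at least 1.13-fold higher in HFoleic than in Ref, set against the lowest signal that was well above background on each Ref array (measured means 5.58 and 5.38, adjusted p = 0.153). The probe of the short, secreted form at chr1:40504769-40504828 was well above background on 1, 5 and 3 arrays of the groups. Its difference was 0.28 in HFoleic vs. Ref (adjusted p = 0.209) and -0.31 in HFepa vs. HFoleic (adjusted p = 0.258). Both values rest on a dim probe and, in the first, on Ref mouse 2 at 6.33, since the other 5 Ref mice lay from 5.02 to 5.52 and none of these was well above background. Ref mouse 2 was then left out, after its value was seen. With the other Ref signals raised in the same way, the short form was 1.22-fold higher in HFoleic than in Ref (measured means 5.71 and 5.25). This is given as a description and not as a test, and the size of this difference depends on that mouse.

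**Figure D2:**
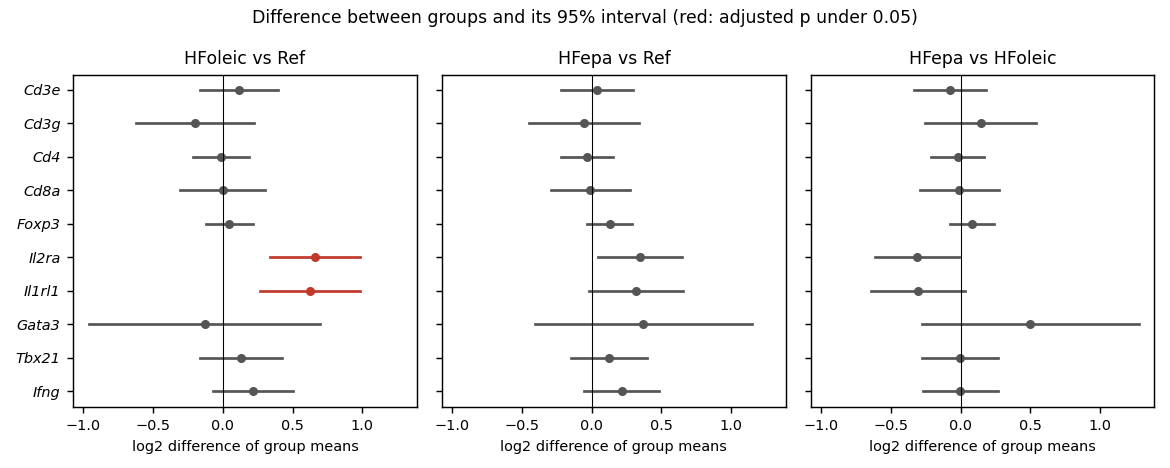
Difference of group means (log2, horizontal axis) with its 95% interval from limma for each of the 10 genes, with 1 panel per comparison of the 3 groups. Red marks an adjusted p below 0.05, reached by Il2ra (0.66) and Il1rl1 (0.63) in the first panel and by no gene in the others.

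Gata3, a factor of Th2 cells, innate lymphoid cells and many epithelia, was measured at chr2:9779495-9779554 (mm9). Its level ran from 8.34 to 10.22 in Ref with a median of 8.72, from 8.25 to 9.07 in HFoleic with a median of 8.93, and from 8.08 to 11.39 in HFepa with a median of 9.07. HFepa mouse 7, at 11.39, and Ref mouse 2, at 10.22, stood apart from the rest of their groups, where the next values were 9.46 and 8.95. The log2 difference was -0.13 in HFoleic vs. Ref (adjusted p = 0.839), 0.37 in HFepa vs. Ref (adjusted p = 0.617) and 0.50 in HFepa vs. HFoleic (95% interval from -0.27 to 1.28, adjusted p = 0.468). Without HFepa mouse 7 the second of these was 0.068 and the third 0.198, and without Ref mouse 2 the first turned to 0.133. Without both mice the 3 differences were 0.133, 0.331 and 0.198. With any 1 mouse left out, the second ran from 0.068 to 0.634 and the third from 0.198 to 0.671. Krt5, a keratin of basal epithelium that was looked at after the values of Gata3 were seen, was at 11.43 in HFepa mouse 7 and between 5.56 and 6.68 in the other 19 mice. The part of Krt5-bearing cells in the Gata3 level was not tested.

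The Th1 genes gave no call. Tbx21 at chr11:96959417-96959476 (mm9) was 7.34 ± 0.25 (SD, n = 6) in Ref, 7.47 ± 0.19 (SD, n = 6) in HFoleic and 7.46 ± 0.29 (SD, n = 8) in HFepa. HFepa mouse 4 had the lowest level, 6.85, and the groups overlapped. Its difference from Ref was 0.13 in HFoleic (adjusted p = 0.519) and 0.12 in HFepa (adjusted p = 0.637).

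Ifng at chr10:117882841-117882900 (mm9) ran from 5.78 to 6.16 in Ref with a median of 5.89, from 5.77 to 6.41 in HFoleic with a median of 6.17, and from 5.62 to 6.45 in HFepa with a median of 6.26. The HFoleic and HFepa mice reached higher than the Ref mice, but each of these groups also held mice in the range of Ref. The difference from Ref was 0.22 ± 0.14 (SE, adjusted p = 0.252) in HFoleic and 0.21 ± 0.13 (SE, adjusted p = 0.36) in HFepa. In HFepa vs. HFoleic the interval of the difference was -0.27 to 0.27 (adjusted p = 0.998).

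How the genes varied from mouse to mouse was described by Pearson correlations over the 20 mice after the mean of each group was subtracted. These points share the arrays and their normalisation, and the values are given as a description only. Cd3g went with Cd3d, the delta chain of CD3 (r = 0.95), with Lck (r = 0.85), a kinase of T cell receptor signalling, and with Cd8a (r = 0.70). Cd3e went less closely with Cd3g (r = 0.25) and Cd3d (r = 0.37), although the proteins form 1 complex. Il2ra and Il1rl1 were at -0.41 and -0.10 with Cd3g, at 0.04 and 0.42 with Foxp3, and at 0.51 with each other. Ifng reached r = 0.84 with the cytotoxic granule gene Nkg7, which was picked after the values were seen.

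**Figure D3:**
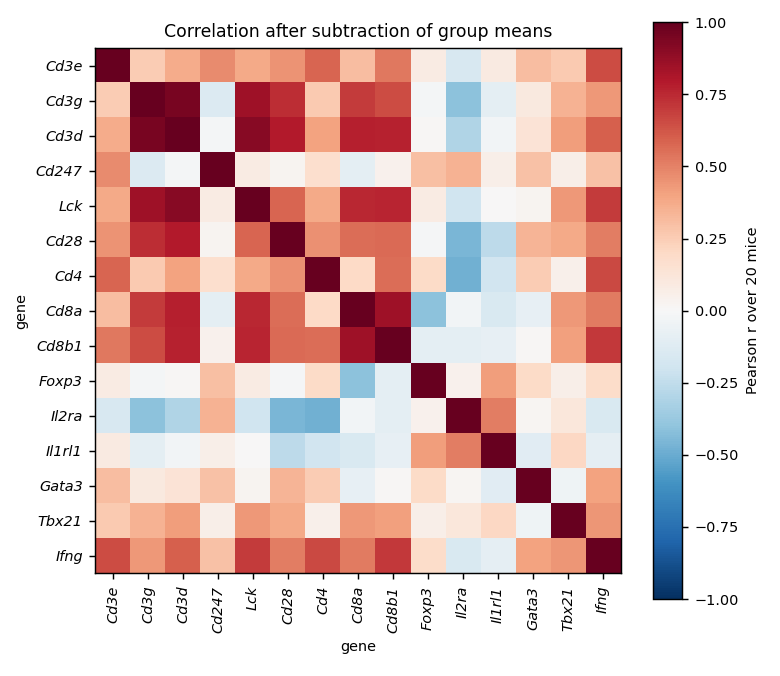
Pearson correlation over 20 mice, after subtraction of the group means, between the 10 genes and 5 further T cell genes (both axes list genes, colour gives r). Cd3g, Cd3d, Lck, Cd28, Cd8a and Cd8b1 form a block of positive values, for example 0.95 between Cd3g and Cd3d, and Il2ra, Il1rl1, Foxp3 and Gata3 lie outside it.

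Over all genes tested, the genes closest to Il1rl1 included Ltb4r1, a leukotriene B4 receptor of myeloid cells (r = 0.93), Cd2, an adhesion receptor of lymphocytes (r = 0.87), Pagr1a (r = 0.84) and Arrdc1 (r = 0.83). Ltb4r1 itself ran from 7.61 to 8.70 in Ref and from 8.54 to 9.18 in HFoleic. The 5 closest to Cd3e were Gm33874, Men1, Krtap19-5 and 2 unnamed transcripts, with r between 0.86 and 0.88, and none of them is a known T cell gene. For Foxp3 they were 2900060B14Rik, 4930442P07Rik, Gm10463, Fam118a and AK142557, with r between 0.67 and 0.74, which are not known as regulatory T cell genes. Neither the Cd3e nor the Foxp3 probe was therefore closest to other genes of the T cell lists.

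Some markers of macrophages were also higher in HFoleic vs. Ref, and lists of other immune cells are given below. Of 10 macrophage markers, all tested, 6 were higher in HFoleic vs. Ref and 1 was lower, the scavenger receptor Cd163 (-0.54, adjusted p = 0.0239), named after its value was seen, beside 15.2% higher and 16.7% lower of all genes. The median log2 difference of the list was 0.89 beside -0.04 over all genes. Lyz2, lysozyme and the brightest of them, rose by 1.60 (adjusted p = 0.00109), from a median of 15.80 in Ref to 17.44 in HFoleic. No macrophage marker was called by limma in HFepa vs. Ref or in HFepa vs. HFoleic. In these, 5 and 6 of the 10 markers had an unadjusted p below 0.05, beside 21.6% and 20.8% of all genes. The summed linear signal of the list ran from 68495 to 104182 in Ref with a median of 99813.5. It ran from 158940 to 321841 in HFoleic (median 261245) and from 74173 to 325035 in HFepa (median 118269.5). HFepa mice 1 and 6 stood apart at 325035 and 280270, while the other HFepa mice lay from 74173 to 145880. These mice were also the highest of HFepa for Il1rl1 (10.17 and 9.89) and Il7r (13.21 and 12.58), and the correlations within groups include them. Within groups, Lyz2 correlated at 0.60 with Il2ra and at 0.64 with Il1rl1, but at -0.39 with Cd3g and 0.15 with Foxp3. Ccr2, a chemokine receptor of monocytes, reached 0.69 with Il2ra and 0.82 with Il1rl1, and Batf3, a factor of conventional dendritic cells, reached 0.71 and 0.82, whereas Clec9a, a receptor of conventional dendritic cells, reached 0.07 and 0.46. All 10 macrophage markers had a mean of at least 9.53 in every group, and the part of macrophages and dendritic cells in the levels of Il2ra and Il1rl1 was not tested.

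**Figure D4:**
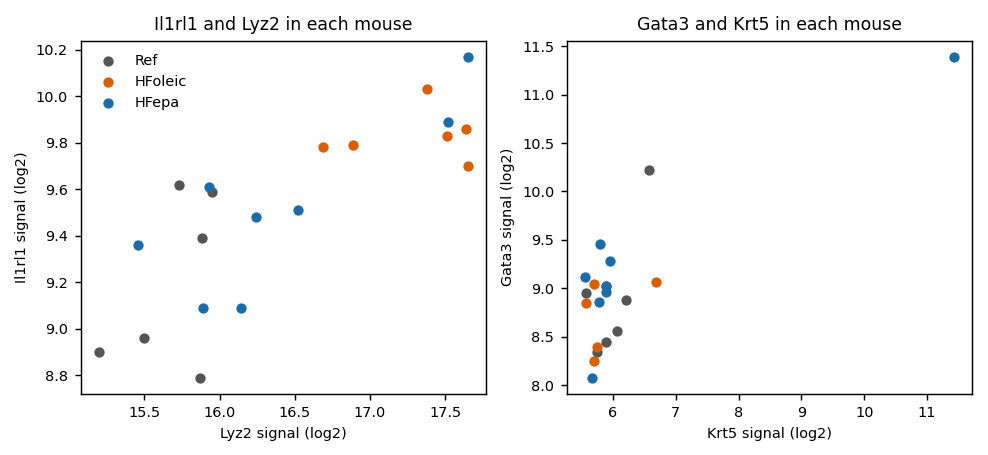
Signal of Il1rl1 against Lyz2 (left) and of Gata3 against Krt5 (right), both axes in log2 units, with 1 point per mouse in Ref (grey), HFoleic (orange) and HFepa (blue). HFoleic lies at the upper right of the left panel, where the Ref mice reach at most 9.62 for Il1rl1 and 15.95 for Lyz2, and 1 HFepa mouse lies apart at 11.43 for Krt5 and 11.39 for Gata3 on the right.

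A wider list of T cell receptor and identity genes held 26 tested genes of 28, with Trat1 and Themis above background on too few arrays. In HFoleic vs. Ref, 4 were higher, 1 was lower and 21 were not called, beside 15.2% higher and 16.7% lower of all genes, and the median difference was -0.02 beside -0.04 over all genes. The 4 were Il7r, the interleukin 7 receptor alpha chain (2.75, adjusted p = 0.00127), Cd6, a T cell costimulatory receptor (0.91, adjusted p = 0.00117), Ccr7, the homing receptor of naive T cells and migrating dendritic cells (0.84, adjusted p = 0.0058), and Cd2 (0.52, adjusted p = 0.0317). Skap1, an adaptor of T cell adhesion, was lower by 0.41 (adjusted p = 0.0466). Il7r ran from 8.71 to 9.67 in Ref, from 10.70 to 12.86 in HFoleic and from 9.64 to 13.21 in HFepa, so that HFoleic stood clear of Ref. Its correlation within groups was 0.92 with Lyz2 and 0.95 with Cd68, a lysosomal protein of macrophages, and that of Ccr7 was 0.75 and 0.82. Without Ref mouse 2 and HFepa mouse 7 the calls of this list went from 5 to 3, and leaving out Ref mouse 2 alone or HFoleic mouse 8 alone also left 3, as did leaving out the 4 mice with Prm1 signal.

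Among the genes of that list that were not called, Cd3d differed by -0.31 (adjusted p = 0.261), Cd28, the main costimulatory receptor, by -0.17 (adjusted p = 0.372), Lck by -0.03 (adjusted p = 0.919) and Zap70, the kinase that binds the phosphorylated receptor, by -0.13 (adjusted p = 0.586). Tcf7 and Lef1, factors of naive and memory T cells, differed by -0.53 (adjusted p = 0.146) and -0.43 (adjusted p = 0.12). Both were high in the 4 mice with Prm1 signal, where Tcf7 lay from 6.80 to 7.59 against 5.66 to 6.74 in the others and Lef1 from 7.21 to 7.61 against 6.05 to 7.43, so that only Tcf7 was separate, and without them the differences were -0.31 and -0.35 (adjusted p = 0.204 and 0.228). Ikzf4, a factor on the regulatory T cell list, was also high there, from 8.15 to 9.54 against 6.81 to 7.50 in the others, and the part of sperm or other reproductive tissue in these levels was not tested. Cd247, the zeta chain, differed by 0.42 (adjusted p = 0.053). None of the 26 genes was called in HFepa vs. Ref or in HFepa vs. HFoleic by limma. There 3 and 2 of them had an unadjusted p below 0.05, beside 21.6% and 20.8% of all genes.

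The list of regulatory T cell genes held 14 tested genes of 16, without Tigit and Il10, the latter above background on at most 2 arrays. Il2ra was the 1 gene higher in HFoleic, 2 were lower and 11 were not called, beside the 15.2% and 16.7% of all genes, with a median difference of 0.01. The 2 lower genes were Ikzf2, encoding the factor Helios (-0.53, adjusted p = 0.00964), and Lrrc32, encoding GARP, which docks latent TGF beta (-0.86, adjusted p = 0.00682). Lrrc32 is also known from endothelial and mesenchymal cells, and it had the brightest probe of the list. Ctla4, the inhibitory receptor of regulatory T cells, differed by 0.05 (adjusted p = 0.724), and Tnfrsf18, encoding GITR, by 0.09 (adjusted p = 0.624). None of the 14 was called by limma in HFepa vs. Ref or in HFepa vs. HFoleic. There 3 and 2 were below an unadjusted p of 0.05, beside 21.6% and 20.8% of all genes.

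The list for the fat-resident regulatory T cells and IL-33 held 12 tested genes of 14, without Areg and Il5, and 4 of these were higher and 2 lower in HFoleic vs. Ref, beside the same shares of all genes, with a median difference of 0.08. Besides Il1rl1, the higher genes were its coreceptor Il1rap (0.37, adjusted p = 0.00684), the AP-1 factor Batf (0.77, adjusted p = 0.00409) and Ccr2 (1.40, adjusted p = 0.000705). Ccr2 lay from 9 to 9.91 in Ref and from 10.46 to 11.26 in HFoleic, with no overlap. Lower were Irf4 (-2.04, adjusted p = 0.00153), a factor shared by effector regulatory T cells and adipocytes, and Rora (-0.43, adjusted p = 0.00591). Irf4 fell from a median of 10.20 in Ref to 8.40 in HFoleic, with 9.24 in HFepa. Il33, the ligand, differed by 0.06 ± 0.32 (SE, adjusted p = 0.915), with Ref mice from 7.04 to 8.94. Pparg, with the brightest probe of the list and chiefly an adipocyte gene in this tissue, differed by -0.23 (adjusted p = 0.167). No gene of this list was called by limma in HFepa vs. Ref or in HFepa vs. HFoleic, where 5 and 1 had an unadjusted p below 0.05, beside the 21.6% and 20.8% of all genes given above.

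**Figure D5:**
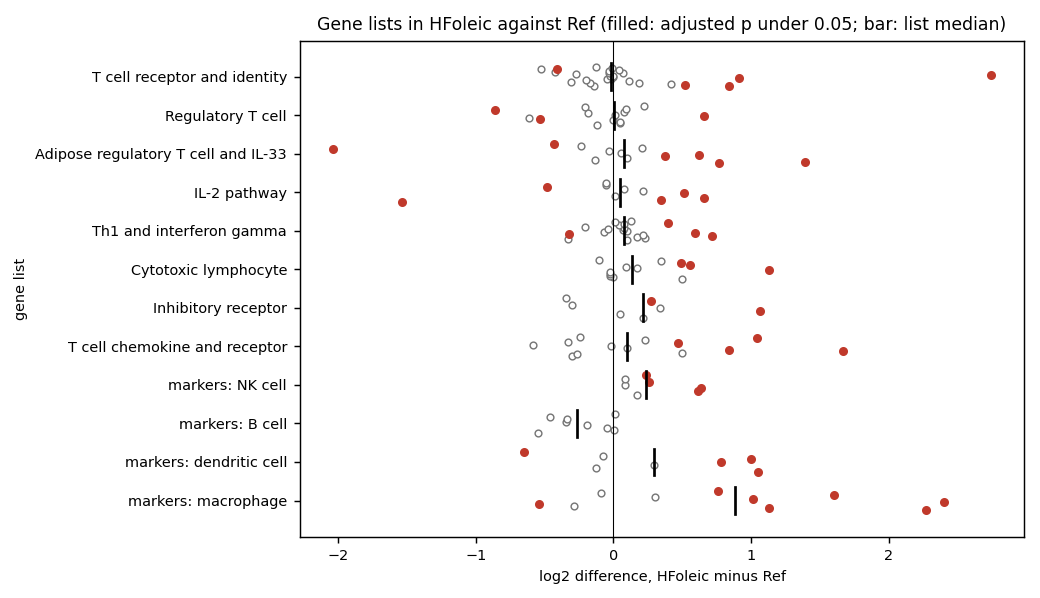
Log2 difference HFoleic minus Ref (horizontal axis) of each tested gene in 12 gene lists, filled where the adjusted p of limma was below 0.05, with a bar at the median of the list. The medians are -0.02 for the T cell receptor and identity list and 0.89 for the macrophage markers, and Il7r at 2.75 lies furthest to the right.

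Ligand, receptor and signalling genes of interleukin 2 were all 10 tested, and 3 were higher and 2 lower in HFoleic vs. Ref, beside 15.2% higher and 16.7% lower of all genes. The shared gamma chain Il2rg (0.51, adjusted p = 0.00921) was higher besides Il2ra, whereas the beta chain Il2rb differed by 0.02 (adjusted p = 0.958). The probe of Il2 itself was dim, well above background on 3 arrays of Ref, on 6 in HFoleic and on 7 in HFepa. Its measured difference was 0.35 (adjusted p = 0.00948). The size is uncertain, because some Ref arrays were not well above background. Jak1, with the brightest probe of the list, differed by 0.22 (adjusted p = 0.0515). Socs1 and Cish, feedback inhibitors of cytokine signalling that are named because they make up the 2 lower genes, fell by 0.48 and 1.54 on the log2 scale (adjusted p = 0.012 and 0.0133). No gene of the interleukin 2 list was called by limma in HFepa vs. Ref or in HFepa vs. HFoleic. In these, 6 and 1 of its 10 genes had an unadjusted p below 0.05, beside 21.6% and 20.8% of all genes.

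Among 19 Th1 and interferon gamma genes, 3 were higher and 1 was lower in HFoleic vs. Ref, beside the same shares of all genes. The interferon gamma receptor chain Ifngr2 rose by 0.60 (adjusted p = 0.00802) and the interferon-induced GTPase Gbp2 by 0.72 (adjusted p = 0.00127), while Ifngr1, with the brightest probe of the list, fell by 0.32 (adjusted p = 0.0157). The list median was 0.08. None of these genes was called in HFepa vs. Ref by limma, where 3 had an unadjusted p below 0.05, beside 21.6% of all genes.

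The cytotoxic lymphocyte list had 3 genes higher and none lower of 12 in HFoleic vs. Ref, beside 15.2% higher and 16.7% lower of all genes. Granzyme A, encoded by Gzma, rose by 1.13 (adjusted p = 0.000477), from 7.54 to 8.73 in Ref to 8.86 to 9.86 in HFoleic, with no overlap. Klrd1 and Klrk1, encoding the receptors CD94 and NKG2D of natural killer cells, rose by 0.55 and 0.49 (adjusted p = 0.015 and 0.00343), and Ccl5, with the brightest probe, differed by 0.50 (adjusted p = 0.0546). Natural killer markers moved with them: 4 of 7 were higher and none was lower, namely Klra8 (0.64, adjusted p = 0.00113), Klra4 (0.62, adjusted p = 0.00334), Klre1 (0.26, adjusted p = 0.0249) and, named after its value was seen, Ncr1 (0.24, adjusted p = 0.0403). Their summed linear signal was 476 to 651 in Ref, 553 to 844 in HFoleic and 532 to 696 in HFepa, and their part in the cytotoxic genes was not tested. Neither list had a gene called by limma in either comparison with HFepa. At an unadjusted p below 0.05, 2 of the 12 cytotoxic genes and 5 of the 7 natural killer markers passed in HFepa vs. Ref. In HFepa vs. HFoleic 3 of each list passed, beside 21.6% and 20.8% of all genes in these comparisons.

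Inhibitory receptors and ligands gave 2 higher genes of 7, beside the same shares, Havcr2, encoding TIM-3 (1.07, adjusted p = 0.00421), and Pdcd1lg2 (0.28, adjusted p = 0.0196), both also carried by myeloid cells. Lag3 differed by 0.34 (adjusted p = 0.0562) and Cd274, with the brightest probe, by 0.22 (adjusted p = 0.379). Of 13 T cell chemokines and receptors, 4 were higher and none lower, among them Cxcr4 (1.05, adjusted p = 0.0043), Ccr7 and, named after its value was seen, Cxcl16 (0.47, adjusted p = 0.0126). Cxcr4, the receptor of CXCL12, was also higher in HFepa vs. Ref (0.98, adjusted p = 0.0363) and was the only gene of the 8 T cell lists called there. Without the 4 mice with Prm1 signal it was at 0.91 (adjusted p = 0.199) in HFepa vs. Ref and at 0.92 (adjusted p = 0.0505) in HFoleic vs. Ref. The probe listed for Cxcl11 was the brightest of that list, with a mean of 17.83 over all mice, and differed by -0.02 (adjusted p = 0.82), and whether it reads Cxcl11 alone was not tested. At an unadjusted p below 0.05, 1 of the 7 inhibitory genes and 2 of the 13 chemokine genes passed in HFepa vs. Ref. In HFepa vs. HFoleic 3 of each list passed, beside 21.6% and 20.8% of all genes in these comparisons.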

How the data were processed

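Total RNA of VAT was extracted with TRIzol and hybridised as Cy3-labelled cRNA to Agilent 1-colour mouse arrays. The deposited spot intensity values, on a linear scale and not normalised, were made by the authors with Agilent Feature Extraction 10.10.1.1, which also set the flags for signal well above background. A further deposited table holds log2 values that the authors filtered and quantile normalised, and it served as an alternative.

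Values were computed in R 4.3.3 with limma 3.58.1. Of 62976 spots, 59305 were not controls, and spots flagged as outliers were set missing. Probes well above background on at least 6 of 20 arrays were kept (39390 probes), and log2 median signals were quantile normalised without background subtraction. One mean per group was fitted to all arrays with lmFit and eBayes, with Benjamini-Hochberg adjustment over all 39390 probes. Of the probes, 12147 were called in HFoleic vs. Ref, 892 in HFepa vs. Ref and 1 in HFepa vs. HFoleic. Lists and background were counted by the brightest probe of each gene name, over 25618 names.

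The labels give each array as a separate replicate. The 3 slides were each hybridised with arrays of all groups. Probe coordinates are those of the files (mm9), and exon positions were not analysed here. Promoter windows are from RefSeq (GRCm38.p6), without the bases after the start. Cd4 was not in that table. Of the list genes, 1 had no name on the array.

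Named genes were the 10 genes, measured genes of the 3 T cell lists, and of each other list the 3 genes with the smallest p in HFoleic vs. Ref and the one with the brightest probe, besides the 5 genes most like Cd3e, Foxp3 and Il1rl1. Some genes that the rule names are not reported here. Genes and lists were chosen with earlier results of these data known. The fit was checked on simulated data. Alternatives were the processed signal, normexp correction with an offset of 50, median centring, the authors' log2 table (38132 probes shared), other filters, slide or replicate number as a block, 2 groups only, the mean of all probes, and leaving out each array.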

Additional observations from a re-analysis of the deposited data

Results flagged for a closer look

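Of the 30 sets of values formed by the 10 genes in the 3 groups, 2 held a mouse far from the others of its group by Dixon's gap test, and chance marks about 1 set in 20. Both were Gata3, at 11.39 in HFepa mouse 7, where the next mouse was at 9.46, and at 10.22 in Ref mouse 2, where the next was at 8.95. Krt5 was at 11.43 in HFepa mouse 7 and at 6.58 in Ref mouse 2, the latter within the range of the other mice. The genes most like Gata3 over the 20 mice, looked at after its values were seen, were Sidt1 (r = 0.85), Sp6 (r = 0.84) and Krt5 (r = 0.80).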

How the results depend on the processing

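Besides the values reported, 33 alternatives were run, of which 20 left out 1 mouse each. None of the 8 uncalled genes was called under any of them, and Il2ra kept its direction and its call in HFoleic vs. Ref under all (0.245 with the mean of both probes, otherwise 0.561 to 0.74). Il1rl1 was 0.366 with the mean of all its probes. With the replicate number as a block, 1 of the 10 genes was called in HFoleic vs. Ref, since Il1rl1 was at 0.476 (adjusted p = 0.0909), and 5396 of all genes were called there and 17 in HFepa vs. Ref. The labels do not say whether equal numbers pair mice of different groups. The deviations of same-numbered mice correlated between -0.587 and 0.559 in 16 pairs. This range cannot decide it, because mice with different numbers were not set beside them. The T cell receptor and identity list had 3 calls without Ref 2 and HFepa 7, an alternative chosen after seeing the data, 3 without the 4 mice with Prm1 and Prm2 signal, also chosen after seeing the data, and 3 to 6 with 1 mouse left out. Without those 4 mice 4649 of all genes were called in HFoleic vs. Ref and 0 in HFepa vs. Ref. All genes called in HFepa vs. Ref were 413 with median centring, 413 without the filter on dim probes, 109 with 2 groups only, 202 without Ref 2 and HFepa 7 and 100 to 1801 with 1 mouse left out, and those in HFepa vs. HFoleic were 811 with slide as a block and up to 1978 without HFepa mouse 1. The cause was not tested. The differences that changed sign were uncalled ones of at most 0.133 in size. In HFoleic vs. Ref these were Cd8a at 0.019 with normexp, 0.006 without the filter, 0.05 with the replicate block and 0.017 without Ref 2 and HFepa 7, Cd4 at 0.006 with median centring, 0.061 with the replicate block and 0.019 with the mean of all probes, Foxp3 at -0.093 with median centring and Gata3 at 0.133 without Ref 2 and HFepa 7. In HFepa vs. Ref they were Cd8a at 0.005 with normexp and 0.004 with the replicate block, and Cd8a at 0.069, Cd3e at -0.037 and Cd3g at 0.023 without those mice. In HFepa vs. HFoleic they were Cd4 at 0.015 with the processed signal, Cd8a at 0.063, 0.054, 0.013 and 0.052 and Ifng at 0.046, 0.052, 0.027 and 0.019 (processed signal, median centring, slide as a block, and last without those mice for Cd8a or with normexp for Ifng), and Tbx21 at 0.001, 0.012, 0.013 and 0.031 (median centring, slide block, replicate block and without those mice). Without the 4 mice with Prm1 signal Cd3e was at 0.009, Cd4 at 0.013, Tbx21 at 0.066 and Ifng at 0.063 in HFepa vs. HFoleic. With 1 mouse left out, HFoleic vs. Ref ran from -0.052 to 0.021 for Cd4, -0.1 to 0.083 for Cd8a and -0.243 to 0.133 for Gata3. HFepa vs. Ref then ran from -0.036 to 0.104 for Cd3e, -0.146 to 0.037 for Cd3g, -0.079 to 0.012 for Cd4 and -0.071 to 0.074 for Cd8a. HFepa vs. HFoleic ran from -0.064 to 0.027 for Cd4, -0.078 to 0.091 for Cd8a, -0.045 to 0.08 for Tbx21 and -0.078 to 0.076 for Ifng.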

Other observations

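Lists of other cell types gave the following in HFoleic vs. Ref, where 15.2% of all genes were higher and 16.7% lower. Dendritic cell markers had 3 genes higher and 1 lower of 7, with Flt3 at 1.00 (adjusted p = 0.00102), Clec9a at 0.78 (adjusted p = 0.00139) and Batf3 at 1.05 (adjusted p = 0.00254), while Zbtb46, named after its value was seen, was the lower one at -0.65 (adjusted p = 0.00517). The probe listed for Siglech was the brightest of this list, with a mean of 16.72, and differed by -0.07 (adjusted p = 0.456), and whether it reads Siglech alone was not tested. Group 2 innate lymphoid cell markers had 3 of 5 lower, namely Calca (-1.03, adjusted p = 0.00496), Rora and Il17rb (-0.73, adjusted p = 0.0389). The others, Il13 (0.10, adjusted p = 0.395) and Hs3st1 (-0.19, adjusted p = 0.333), were not called. Rora had a mean of 12.91 over all mice. Whether the lower genes read these cells alone in whole fat was not tested. Among gamma delta T cell markers the transcription factor Sox13, which has other sources in fat, was lower (-0.42, adjusted p = 0.00726), while Il17a and Il23r were above background on 0 arrays. Mast cell markers had 2 of 9 lower, Gata2 (-0.67, adjusted p = 0.00643) and Kit (-0.43, adjusted p = 0.0244), and Tpsb2, with the brightest probe, differed by -0.37 (adjusted p = 0.14).

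None of 8 B cell markers was called by limma, and Cd79b differed by -0.19 (adjusted p = 0.706). Of the 8, 3 had an unadjusted p below 0.05 in HFoleic vs. Ref, beside 42.2% of all genes. Within groups, Cd3g correlated with the plasma cell gene Jchain (r = 0.70). Of 4 plasma cell markers 1 was higher, Sdc1 (1.07, adjusted p = 0.00464), which other cells of fat also carry. None of 4 lymph node stroma markers was called, and Ccl21a, with the brightest probe, differed by -0.26 ± 0.99 (SE, adjusted p = 0.872). Of 6 adipocyte genes Lep rose by 1.13 (adjusted p = 0.000742), Retn fell by 0.65 (adjusted p = 0.00711), and Fabp4, with the brightest probe, differed by 0.02 (adjusted p = 0.736). None of 4 testis and epididymis markers was called, and their summed signal was 4373 in HFoleic mouse 5, 3329 in Ref mouse 3, 2372 in Ref mouse 6 and 1595 in HFepa mouse 4, against 202 to 578 in the other mice. The 578 was HFepa mouse 2, where Adam7, another gene of this list, was at 8.62, against 5.16 in HFepa mouse 4. The 4 mice were set apart by Prm1 and Prm2, so HFepa mouse 2 stayed in when they were left out. Of 5 housekeeping genes 3 were higher, Actb (0.41, adjusted p = 0.000477), Hprt (0.23, adjusted p = 0.0384) and Ppia (0.18, adjusted p = 0.0118).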
